A study of Mus musculus with 8 samples.

Results

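Protein kinase A is the main effector of cyclic AMP, and the 9 genes described here code for its catalytic subunits (Prkaca and Prkacb), its regulatory subunits (Prkar1a, Prkar1b, Prkar2a and Prkar2b), the anchoring protein Akap5 and the cyclic AMP-responsive transcription factors Creb1 and Crem. They were taken by symbol, with every probe set assigned to exactly 1 of these genes, which gave 33 of 45037 probe sets and 9 of 18193 genes on the array. Striatal RNA came from 8 mice of C57BL/6 X CBA F1 hybrid background, all aged 22 months, and each mouse gave 1 Affymetrix Mouse Genome 430 2.0 array. The 4 CHL2 mutants model Huntington's disease: both copies of their own Htt gene carry 150 CAG repeats from human exon 1 by knock-in. The 4 controls were wild type. Mutants 141, 153 and 154 and wild-type mouse 161 were female, and mutant 191 and wild-type mice 170, 180 and 200 were male. Values are log2 signals after RMA normalisation, and changes are mutant minus wild type, adjusted for sex in a limma fit over all genes. A gene is said to rise or fall where its Benjamini-Hochberg adjusted p was under 0.05.

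In a resting cell, a pair of catalytic subunits is held inactive by a pair of regulatory subunits. Cyclic AMP binds the regulatory subunits and frees the catalytic ones, which phosphorylate targets at the synapse, in the cytoplasm and in the nucleus, CREB among them. In medium spiny neurons, the principal neurons of the striatum, the cascade runs from dopamine and adenosine receptors through adenylyl cyclase to this kinase and on to the phosphoprotein DARPP-32. Anchoring proteins decide where the enzyme sits, chiefly by binding type II regulatory subunits. Type I subunits are mostly found in the cytosol.

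Of the 9 genes, Akap5 and Prkar2b fell in mutant striatum, Prkar2a and Creb1 rose, and Prkaca, Prkacb, Prkar1a, Prkar1b and Crem did not pass the test. Thus 2 of 9 were lower, where 6.01% of all genes were, and 2 of 9 were higher, where 6.40% were, 12.4% in either direction. The median log2 change of the 9 genes was 0.22, against 0.0052 over all genes. The groups did not overlap for 7 of the 9 genes, Prkaca and Crem being the exceptions, where 20.7% of all genes were without overlap. Tested as single probe sets, 3 of 33 were lower (3.44% of all probe sets) and 6 of 33 higher (3.26%, or 6.70% in either direction), and 16 of 33 had groups without overlap (15.4% of all probe sets). For 10 of the 33, all 8 values lay under 5, the log2 of 32, which is near background. The same held for 45.96% of all probe sets. Probe sets of 1 gene are not independent of each other.

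**Figure D1:**
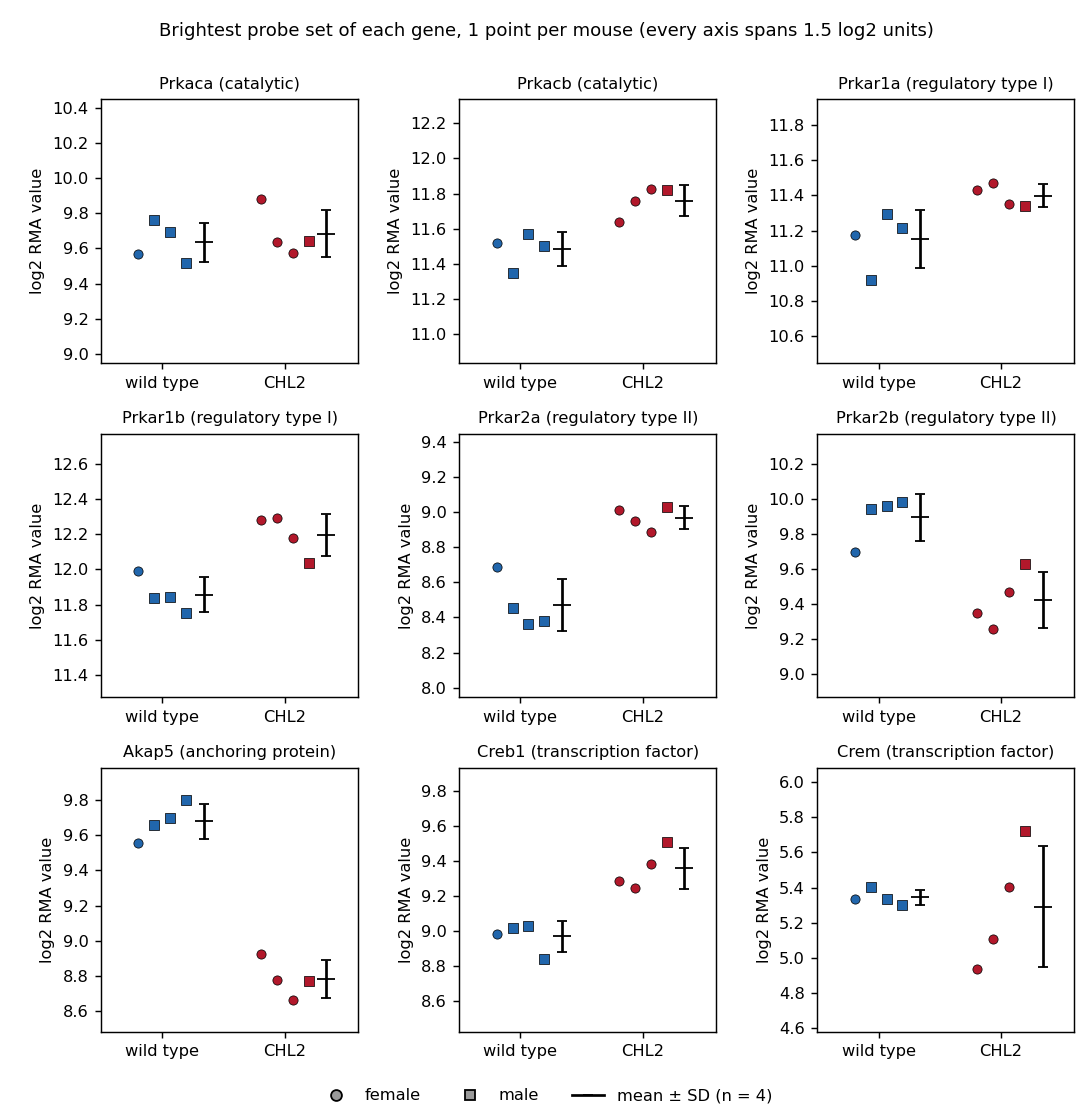
Log2 RMA value of the brightest probe set of each of the 9 genes in each mouse (circles female, squares male), with the mean and SD of 4 mice per group; every vertical axis spans 1.5 log2 units. Akap5 shows the widest gap between the groups, Prkar2a and Prkar2b part in opposite directions, and Prkaca and Crem overlap.

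The medians of the 8 arrays lay between 4.95 and 4.98, and pairs of arrays correlated at r = 0.990 to 0.996 within the groups and at r = 0.983 to 0.991 between them. Wild-type mouse 170 stood apart in RNA quality. The difference between the 3' and 5' control probe sets of Gapdh was 1.37 in mouse 170 and 0.321 to 0.431 in the other 7 mice, and that of beta-actin was 2.65 against 1.23 to 1.51. The mutant minus wild-type difference in means, with mouse 170 among the controls, was -0.22 for Gapdh and -0.32 for beta-actin. Neither passed a two-sided exact permutation test (p = 0.83 and 0.49 over 70 assignments), which does not show that RNA quality was equal in the groups. Mice 161 and 191 are each the single animal of their sex in their group, so without mutant 191 the sex-adjusted change rests on females, with 161 as the sole control, and without 161 it rests on males, with 191 as the sole mutant. Htt fell by 0.67 (SE 0.09, adjusted p = 0.00101). The labels give no position of its probe sets relative to the knock-in.

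Akap5 changed most. It codes for the scaffold known as AKAP79 in humans and AKAP150 in rodents, which holds the kinase, protein kinase C and the phosphatase calcineurin beside glutamate receptors at the postsynaptic membrane. Its brightest probe set, 1436142_at, read 8.93, 8.78, 8.66 and 8.77 in mutants 141, 153, 154 and 191, and 9.56, 9.66, 9.70 and 9.80 in wild-type mice 161, 170, 180 and 200. Every mutant thus lay well below every wild-type mouse. The group means were 8.78 ± 0.11 (SD, n = 4) in mutants and 9.68 ± 0.10 in wild-type mice. The sex-adjusted log2 change was -0.86 (SE 0.09, 95% interval -1.07 to -0.65, adjusted p = 0.000326), 1.81-fold lower in mutants. Within the sexes the difference was -0.77 in females and -0.95 in males. The call held in 21 of 22 other settings, with log2 changes of -0.95 to -0.69. It was lost on the mean of the gene's 3 probe sets (log2 change -0.69, adjusted p = 0.0699).

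The other 2 Akap5 probe sets lay lower in the mutants too, but 1 of them depended on mouse 170. Akap5 1447301_at read 4.50 to 4.80 in the mutants and 5.27 to 5.48 in wild-type mice, and it fell by 0.60 (SE 0.10, adjusted p = 0.00649 over all probe sets). All 4 mutant values lay under 5, so the size of this change rests on signal near background. Its call was lost without mutant 191 (adjusted p = 0.0875) and without wild-type 161 (adjusted p = 0.107). Akap5 1431717_at read 7.67, 7.71, 7.71 and 8.03 in the mutants and 8.85, 8.66 and 9.22 in wild-type mice 161, 180 and 200, but 6.38 in mouse 170. With all mice its log2 change was -0.60 (SE 0.59, adjusted p = 0.674). Without mouse 170 it was -1.04 (SE 0.14, adjusted p = 0.00300). On the mean of the 3 probe sets the change without mouse 170 was -0.84 (adjusted p = 0.000392), so that the lost call returned. The part of RNA quality in the value of mouse 170 was not tested.

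**Figure D2:**
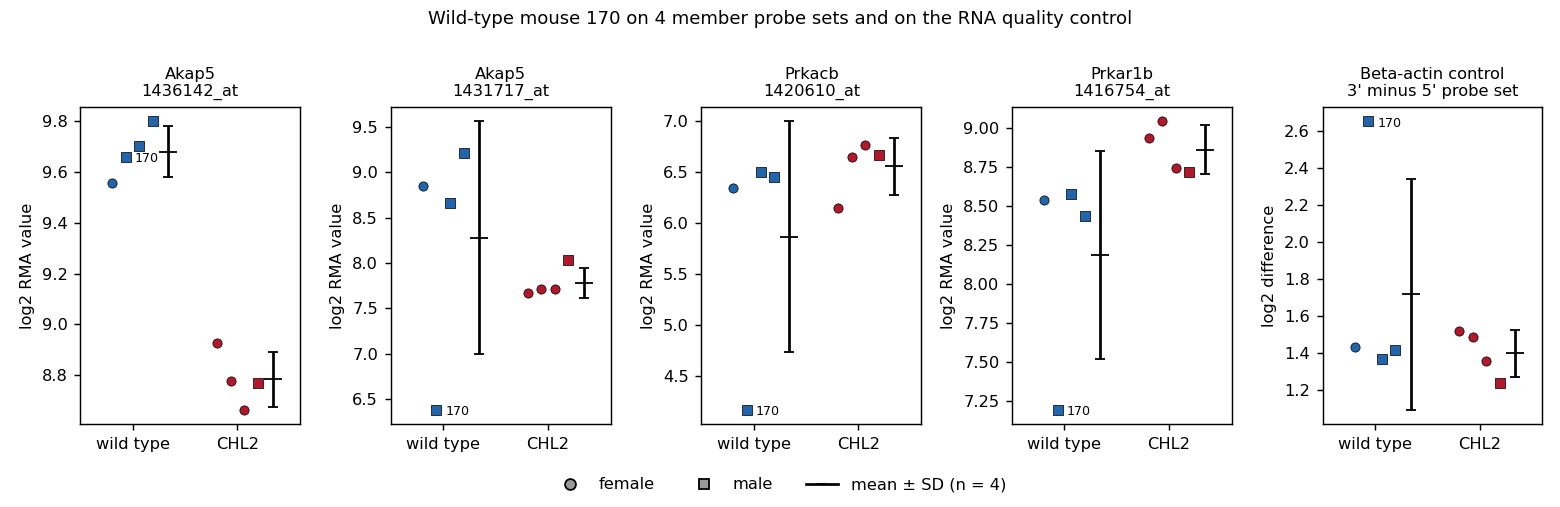
Log2 RMA values per mouse of 4 probe sets of Akap5, Prkacb and Prkar1b, and the 3' minus 5' difference of the beta-actin control (far right), with the mean and SD of 4 mice per group. Mouse 170 lies among the other wild-type mice on Akap5 1436142_at (9.66) but at 6.38, 4.17 and 7.19 on the next 3 probe sets, and at 2.65 on the control. Those 3 probe sets were chosen for display because mouse 170 lay far below the other wild-type mice on them.

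Among non-member genes, those whose profile came closest to that of Akap5 over the 8 mice were Camkv, Lzts3 and Ngef. Likeness was measured as the root mean square difference between log2 values from which each gene's own mean had been taken. It was 0.0505 for Camkv, 0.0636 for Lzts3 and 0.0671 for Ngef, against a median of 0.479 over all genes. Their own log2 changes were -0.88, -0.94 and -0.82. Values near that of Akap5 follow from the choice, as the same mice were used for it. No other member both passed the test and changed 1.5-fold.

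The type II regulatory subunits moved in opposite directions. Prkar2a codes for RII alpha, the broadly expressed form, and rose. Its brightest probe set read 9.01, 8.95, 8.88 and 9.03 in mutants 141, 153, 154 and 191, and 8.69, 8.45, 8.36 and 8.38 in wild-type mice 161, 170, 180 and 200. All mutants lay above all controls, and female mouse 161 was the nearest to them. The means were 8.97 ± 0.07 (SD, n = 4) and 8.47 ± 0.15. Adjusted for sex, Prkar2a changed by 0.45 (SE 0.10, 95% interval 0.23 to 0.66, adjusted p = 0.0134), a rise of 1.36-fold. The difference was 0.26 in females and 0.63 in males. The call held in 20 of 22 other settings and was lost without mutant 191 (log2 change 0.26, adjusted p = 0.273) and without moderation of the variances (adjusted p = 0.0575). Dropping both 191 and the sex term, it held (log2 change 0.48, adjusted p = 0.00824).

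Prkar2a 1428783_at spanned 8.37 to 8.50 in mutants and 7.79 to 8.16 in wild-type mice, again without overlap. Its log2 change was 0.38 (SE 0.10), with an adjusted p = 0.0503 over all probe sets. It passed in 9 of 20 other settings, so it sits at the threshold. With the same adjustment over all probe sets, the brightest, Prkar2a 1452915_at, passed in 14 of 20. The remaining pair, 1432409_at and 1427414_at, had all 8 values under 5 and log2 changes of -0.06 and 0.33, neither of which passed.

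Prkar2b codes for RII beta, the regulatory subunit typical of brain and fat, and is the form that much of the striatal kinase carries. It fell. In the mutants 141, 153, 154 and 191 the brightest probe set read 9.35, 9.26, 9.47 and 9.63, against 9.70 in wild-type mouse 161 and 9.94, 9.96 and 9.98 in mice 170, 180 and 200. The groups did not overlap, but mutant 191 and wild-type 161 came close to each other. The means were 9.43 ± 0.16 (SD, n = 4) and 9.89 ± 0.13. Adjusted for sex, Prkar2b changed by -0.34 (SE 0.08, 95% interval -0.52 to -0.15, adjusted p = 0.0233), 1.26-fold lower. Within the sexes it was -0.34 in females and -0.33 in males. The call held in 18 of 22 other settings. It was lost without mutant 191 (adjusted p = 0.180), without wild-type 161 (adjusted p = 0.175), without wild-type 200 (adjusted p = 0.0522) and on the mean of the probe sets (adjusted p = 0.0956), where it returned without mouse 170 (adjusted p = 0.0287). Dropping the sex term as well, the change was -0.54 without 191 (adjusted p = 0.00447) and -0.53 without 161 (adjusted p = 0.00449).

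With adjustment over all probe sets, the brightest Prkar2b probe set, 1438664_at, kept its call in 12 of 20 other settings. The other 2 Prkar2b probe sets had negative log2 changes that did not pass. That of Prkar2b 1456475_s_at was -0.27 (SE 0.10, adjusted p = 0.190), from 9.06 to 9.47 in mutants and 9.50 to 9.77 in wild-type mice. That of Prkar2b 1430640_a_at was -0.24 (SE 0.23), with 6.75 to 6.97 in mutants, 7.39, 7.36 and 6.96 in wild-type mice 161, 180 and 200, and 6.33 in mouse 170.

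**Figure D3:**
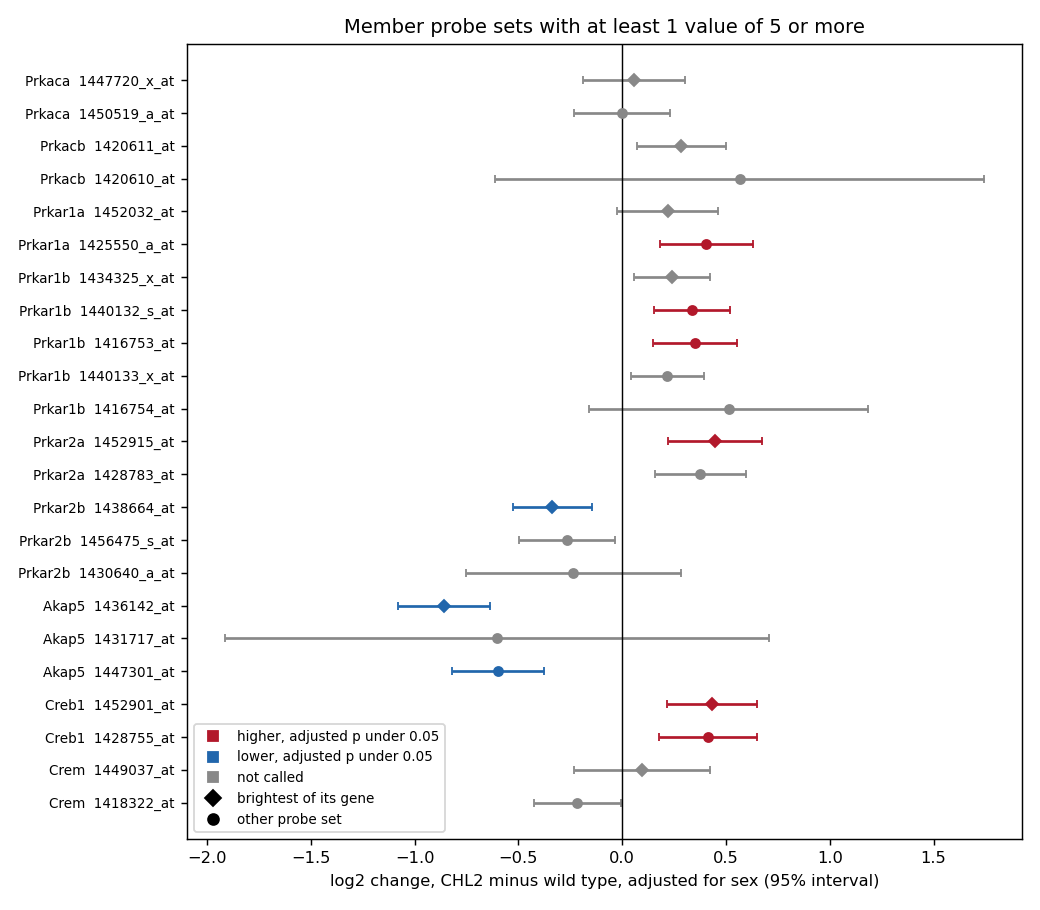
Log2 change of the 23 member probe sets with at least 1 value of 5 or more (diamonds mark the brightest of each gene), with 95% intervals of the limma fit; red and blue mark an adjusted p under 0.05 over all 45037 probe sets. All probe sets of Prkar1a, Prkar1b, Prkar2a and Creb1 shown here lie above 0 and all of Prkar2b and Akap5 below it, with wide intervals for Prkacb 1420610_at, Prkar1b 1416754_at and Akap5 1431717_at.

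The type I regulatory subunits had log2 changes above 0 on all 8 of their probe sets, of which 3 passed. For Prkar1a 1447635_at the change was 0.03, and every value lay under 5, near background. Prkar1b codes for RI beta, which is largely confined to neurons. Its brightest probe set, 1434325_x_at, read 12.28, 12.29, 12.18 and 12.04 in the mutants and 11.99, 11.84, 11.84 and 11.75 in wild-type mice 161, 170, 180 and 200. The groups did not overlap. The log2 change was 0.24 (SE 0.08, 95% interval 0.07 to 0.42, adjusted p = 0.0756), which missed the threshold. It passed in 11 of 22 other settings, among them the fit without sex (log2 change 0.34, adjusted p = 0.0189) and the mean of the 5 probe sets (log2 change 0.33, adjusted p = 0.0456).

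Of the other 4 Prkar1b probe sets, 2 rose when tested as single probe sets. Prkar1b 1416753_at lay between 11.00 and 11.04 in mutants and between 10.49 and 10.74 in wild-type mice (log2 change 0.35, SE 0.09, adjusted p = 0.0489). Prkar1b 1440132_s_at rose by 0.34 (SE 0.08, adjusted p = 0.0390). These calls held in 9 of 20 and in 13 of 19 other settings. With the same adjustment over all probe sets, the brightest, Prkar1b 1434325_x_at, passed in 5 of 19. The call of Prkar1b 1416753_at was lost without any 1 of the 8 mice (adjusted p = 0.0536 to 0.360), and that of Prkar1b 1440132_s_at without any 1 of 153, 154, 191, 161, 180 and 200 (adjusted p = 0.0566 to 0.316). Prkar1b 1416754_at read 7.19 in mouse 170 and 8.44 to 8.58 in the remaining controls, and its log2 change of 0.51 was 0.30 without that mouse (adjusted p = 0.153).

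Prkar1a codes for RI alpha, the subunit whose loss in humans causes Carney complex. On the brightest probe set the values were 11.43, 11.47, 11.35 and 11.34 in mutants and 11.18, 10.92, 11.30 and 11.22 in wild-type mice 161, 170, 180 and 200, with mouse 170 lowest. The groups lay side by side without overlap. The log2 change was 0.22 (SE 0.10, 95% interval -0.01 to 0.45, adjusted p = 0.223), and none of the 22 other settings gave a call. On its second probe set, Prkar1a 1425550_a_at, it rose from 9.40 ± 0.14 (SD, n = 4) to 9.79 ± 0.04 (log2 change 0.41, SE 0.10, adjusted p = 0.0405). That call held in 12 of 20 other settings, also without mouse 170 (log2 change 0.36, adjusted p = 0.0341), and was lost without mutant 191 (adjusted p = 0.313), without wild-type 161 (adjusted p = 0.223) and without any 1 of 141, 153, 154 and 180 (adjusted p = 0.0604 to 0.0713).

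The catalytic subunits did not pass the test. Prkaca codes for C alpha. The brighter of its probe sets read 9.88, 9.64, 9.58 and 9.64 in mutants 141, 153, 154 and 191, and 9.57, 9.76, 9.69 and 9.52 in wild-type mice 161, 170, 180 and 200, so the groups overlapped. The log2 change was 0.06 (SE 0.11, 95% interval -0.18 to 0.29, adjusted p = 0.803), and its other probe set gave -0.0015 (SE 0.10, 95% interval -0.23 to 0.23). Both intervals leave out a change as large as that of Akap5.

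Prkacb codes for C beta, the second catalytic subunit of brain. The brightest probe set of Prkacb read 11.64, 11.76, 11.83 and 11.82 in the mutants and 11.52, 11.34, 11.57 and 11.50 in wild-type mice 161, 170, 180 and 200. The groups did not overlap. The log2 change was 0.28 (SE 0.09, 95% interval 0.08 to 0.49, adjusted p = 0.0748), and it passed in 3 of 22 other settings, such as the fit without sex (adjusted p = 0.0356). Prkacb 1420610_at read 4.17 in mouse 170 and 6.35 to 6.50 in the other wild-type mice, against 6.15 to 6.77 in mutants. Its log2 change was 0.57 (SE 0.53) with all mice and 0.18 (SE 0.15) without mouse 170, and neither passed. Prkacb 1457197_at had all 8 values under 5, near background, and a log2 change of -0.12 that did not pass.

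Creb1, the transcription factor that the kinase phosphorylates to start cyclic AMP-dependent transcription, rose. Its brightest probe set read 9.29, 9.25, 9.38 and 9.51 in mutants 141, 153, 154 and 191, and 8.99, 9.02, 9.03 and 8.84 in wild-type mice 161, 170, 180 and 200. All mutants lay above all wild-type mice, and male mutant 191 was the highest. The means were 9.36 ± 0.12 (SD, n = 4) and 8.97 ± 0.09. Adjusted for sex, Creb1 changed by 0.43 (SE 0.09, 95% interval 0.23 to 0.64, adjusted p = 0.0125), a rise of 1.35-fold. The difference was 0.32 in females and 0.55 in males.

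The Creb1 call held in 19 of 22 other settings. It was lost without mutant 191 (log2 change 0.32, adjusted p = 0.220), though not when the sex term was dropped too (0.34, adjusted p = 0.0211). It was also lost on the mean of the 6 probe sets (0.16, adjusted p = 0.175, and 0.15 without mouse 170), 4 of which had all 8 values under 5. The remaining bright probe set, Creb1 1428755_at, rose by 0.41 (SE 0.11, adjusted p = 0.0478 over all probe sets) from 8.16 to 8.36 in wild-type mice to 8.41 to 8.85 in mutants. Its call held in 5 of 20 other settings and was lost without any 1 of the 8 mice (adjusted p = 0.0528 to 0.525). With the same adjustment over all probe sets, the brightest, Creb1 1452901_at, passed in 13 of 20.

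Crem codes for a family of activators and repressors, among them the inducible repressor ICER, and was dim on all 4 probe sets. The brightest read 4.94, 5.11, 5.40 and 5.72 in mutants 141, 153, 154 and 191, and 5.30 to 5.40 in the 4 wild-type mice. The mutants thus lay on both sides of a tight wild-type group, with an SD of 0.34 against 0.04. The log2 change was 0.09 (SE 0.14, 95% interval -0.22 to 0.41, adjusted p = 0.750), and it was -0.05 when sex was left out of the fit. The difference was -0.18 in females and 0.37 in males. A limma fit with an interaction of sex and genotype gave no call for any of the 9 genes (lowest adjusted p = 0.969), and 0.00550% of all genes, 1 gene, had one. That gene was the listed CREB target Npas4. At an unadjusted p under 0.05 there were 917 of 18193 genes, close to the share of 0.05 that chance gives. Of the 9, 1 was among them, Crem.

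**Figure D4:**
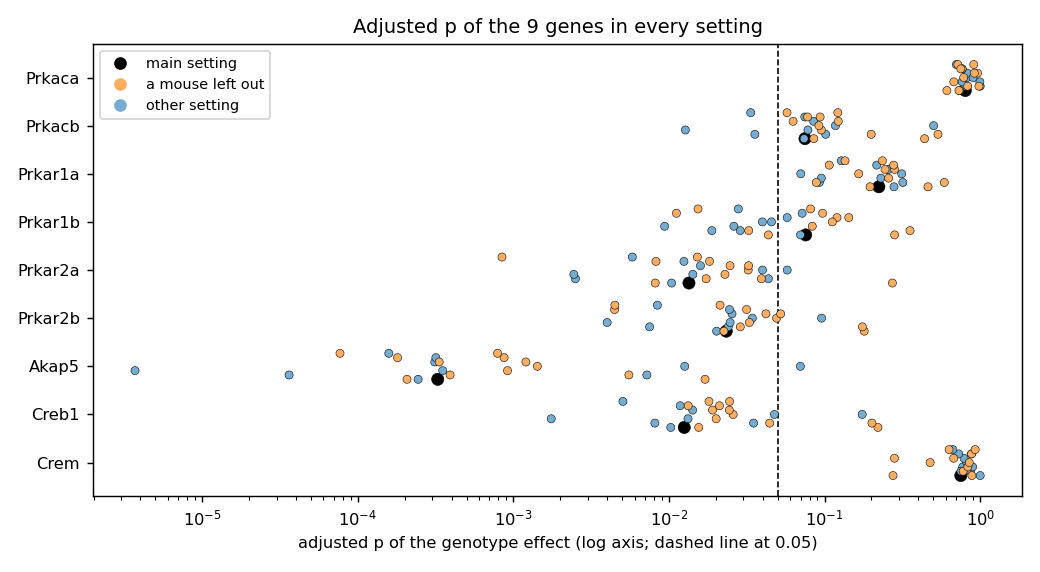
Adjusted p of the genotype effect for each of the 9 genes on a log axis, in the main setting (black), with a mouse left out (orange) and in the other settings (blue); the dashed line marks 0.05. Akap5 stays left of the line in 21 of 22 other settings, while Prkacb and Prkar1b straddle it and Prkaca, Prkar1a and Crem stay right of it.

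The rest of the cyclic AMP cascade was read from 7 lists with 119 measured genes, of which 35 were lower and 5 higher, with a median log2 change of -0.16. All lists here and below were chosen with earlier results of these data known, so their counts are descriptions, not independent evidence. Over all genes, 6.01% were lower and 6.40% higher, which are the shares to set beside the count of each list. Without wild-type 161 the counts were 19 and 1, and without mutant 191 they were 27 and 1. The 5 rises numbered 3 without wild-type 180 and 2 without wild-type 200. Among the kinase inhibitors and the related kinase Prkx, Pkig, an inhibitor of the catalytic subunit, fell by 0.58 (SE 0.09, adjusted p = 0.00302) and lost its call without mutant 191 (adjusted p = 0.0685). Pkia, another such inhibitor, rose by 0.42 (adjusted p = 0.0194) with overlapping groups, and its call was lost without sex in the fit (log2 change 0.26, adjusted p = 0.189), without wild-type 161 and without mutant 191. Of 21 other anchoring proteins, 1 fell and 0 rose, and their median log2 change was -0.04. That gene was Akap9, a large scaffold of the centrosome and Golgi, which fell by 0.82 (SE 0.08, adjusted p = 0.000186) with all 6 of its probe sets below 0.

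Among 16 other CREB family factors, coactivators and kinases of the CRTC coactivators, 1 fell and 2 rose, where 6.01% and 6.40% of all genes did. Crtc1, the neuronal coactivator of CREB, fell by 0.45 (adjusted p = 0.0225) on its brightest probe set, but 2 of its 3 probe sets lay the other way and the call was lost on their mean (-0.08, adjusted p = 0.704), without mutant 191 (adjusted p = 0.207) and without wild-type 161 (adjusted p = 0.141). Creb3l2, a membrane-bound relative, rose by 0.49 (adjusted p = 0.0255) and lost its call without either of those mice (adjusted p = 0.298 and 0.0902) and without wild-type 200 (adjusted p = 0.0549). Creb5, with a wild-type mean of 4.44, had an adjusted p = 0.0488 that did not hold in the fit on genotype alone (adjusted p = 0.506) or without any 1 of mice 153, 191, 161, 180 and 200 (adjusted p = 0.0605 to 0.280).

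Of 24 genes known as targets of CREB, 14 fell and 0 rose, where 6.01% and 6.40% of all genes did. Their median log2 change was -0.86. The enkephalin precursor Penk fell by 1.63 (SE 0.09, adjusted p = 4.01e-06), the clock gene Per2 by 0.84 (adjusted p = 0.000186) and the neuronal pentraxin Nptx2 by 1.04 (adjusted p = 0.000214). Mouse 161 had the highest level here. The mean log2 level over the 24 genes was 8.54 there, 7.36 to 7.52 among the mutants and 7.60 to 7.89 among the remaining controls. Leaving that mouse out, 5 of the 24 fell, namely Penk, Per2, Nptx2, Per1 and Crh, and in the fit on genotype alone 9 fell, or 8 without wild-type 170 as well. Over all genes, falls went from 1094 to 508 without mouse 161. Crh had all 8 values under 5, near background. Npas4, an activity-induced transcription factor, was not called for genotype (log2 change -1.06, adjusted p = 0.212), but its difference was -2.62 in females and 0.49 in males (interaction adjusted p = 0.00986). Mouse 161 was the highest for it, at 7.31 against 5.25 to 5.57 in the remaining controls and 4.46 to 5.91 in mutants. Without mutant 191 it fell by 2.62 (adjusted p = 0.000235), and without wild-type 161 its change was 0.49 (adjusted p = 0.178). Penk, Pdyn and Tac1 are also on the list of medium spiny neuron markers.

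The cyclic AMP response element, TGACGTCA, is a sequence that CREB and CREM bind. It was searched in the 250 bases before each start site in RefSeq (GRCm38.p6), where both strands read alike, and it stood in 1.55% of 32851 windows of that length. Of the members with a window, Prkar1a alone had it, in 1 of 6 windows. Among the 24 listed targets, 17 had a window and 3 of these held it, of which Dusp1 fell (by 1.02, adjusted p = 0.0217, with overlapping groups, and not without mouse 161) and Sst and Pcsk1 did not pass. The stretches below are shown because they give the site in a kinase gene beside the same site in genes known as CREB targets, with the element in capitals. They lie at chr11:109650880-109650927 (plus strand) for Prkar1a, chr17:26508588-26508635 (minus) for Dusp1, chr16:23890865-23890912 (minus) for Sst and chr13:75089759-75089806 (plus) for Pcsk1.
Prkar1a: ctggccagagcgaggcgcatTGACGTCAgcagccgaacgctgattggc
Dusp1: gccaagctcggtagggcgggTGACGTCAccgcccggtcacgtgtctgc
Sst: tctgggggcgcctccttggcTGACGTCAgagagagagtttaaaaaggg
Pcsk1: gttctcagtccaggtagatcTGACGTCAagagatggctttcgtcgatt
The element begins 49 bases before the start in Prkar1a, 143 in Dusp1, 48 in Sst and 78 in Pcsk1. The first 5 bases of the element, TGACG, were searched too, on both strands. They stood in 17.77% of all windows, in 6 of 21 member windows and in 15 of the 17 listed targets with a window. Those 17 targets had 25 windows together, while the percentages count single windows. Windows of the same gene can overlap, and a TGACG of Prkar1a was counted again in an overlapping window. Prkaca, Prkacb, Prkar1a and Prkar1b had TGACG, and Prkar2a, Prkar2b, Akap5 and Creb1 did not. A match is a description of the sequence, and no binding was measured.

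Upstream of the kinase, 9 of 28 genes for cyclic AMP synthesis and breakdown fell and 1 rose, where 6.01% and 6.40% of all genes did. The striatal cyclase Adcy5 was 2.74-fold lower, and the phosphodiesterases Pde10a and Pde1b were 2.53-fold and 2.12-fold lower (adjusted p of 8.86e-05 or less for all 3 genes). The riser, Pde4d, a cyclic AMP phosphodiesterase, was 1.67-fold higher (log2 change 0.74, SE 0.10, adjusted p = 0.000861) and was singled out after its value was seen. The count of falls was 5 without mutant 191 and 11 when that fit had no sex term, and 6 without wild-type 161. Downstream, 8 of 18 kinase substrates and opposing phosphatases fell and 0 rose, against the same shares of all genes. The phosphoproteins Arpp19 and Arpp21 were 3.88-fold and 2.15-fold lower, and Ppp1r1a, the phosphatase inhibitor related to DARPP-32, was 1.80-fold lower. Adcy5, Pde10a, Pde1b and Gnal of the upstream list are also on the list of medium spiny neuron markers. So are Arpp21, Ppp1r1b and Ptpn5 of the downstream list, and the counts of these lists are not independent of each other. Of 8 other effectors of cyclic nucleotides, the cyclic GMP-dependent kinase gene Prkg2 fell by 0.69 (adjusted p = 0.0114) and was not called without wild-type 161, and the channel gene Hcn3 rose by 0.31 (adjusted p = 0.0287) and was not called without any of mice 161, 180, 191 and 200.

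**Figure D5:**
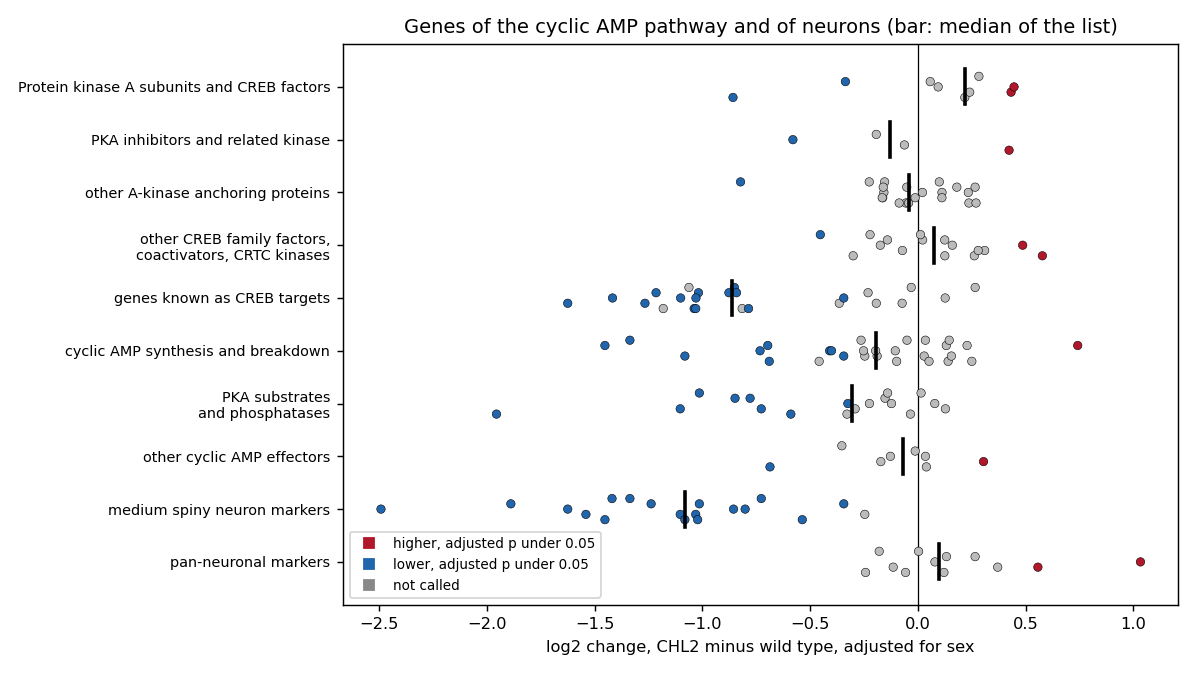
Log2 change of every measured gene in the 9 genes described here (top), in 7 lists of the cyclic AMP cascade and in 2 neuronal marker lists, with the median of each list as a bar; red and blue mark an adjusted p under 0.05. The medians are 0.22 for the 9 genes, -0.86 for the CREB targets, -1.08 for medium spiny neuron markers and 0.10 for pan-neuronal markers.

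In whole striatum, fewer cells of a type and less RNA per cell cannot be told apart. For the counts of markers that follow, 6.01% of all genes fell and 6.40% rose. Markers of medium spiny neurons fell in 18 of 19 measured cases, led by Scn4b (5.63-fold lower) and Gpr6 (3.71-fold), with a mean log2 level over the list of 10.2 to 10.4 in mutants and 11.5 to 11.6 in wild-type mice. Their median log2 change was -1.08, and that of Akap5 was -0.86. Pan-neuronal markers fell in 0 of 12 cases in the limma fit, with a mean level of 10.5 to 10.7 in mutants and 10.3 to 10.5 in wild-type mice, and 2 rose, Stmn2 (2.05-fold) and Uchl1 (1.47-fold). Among glial and vascular markers, S100b and Gfap rose among 8 of astrocytes (1.34-fold and 1.39-fold, with overlapping groups for Gfap), Mobp fell among 8 of oligodendrocytes (1.31-fold), and none of 10 for microglia, 7 for cortical neurons and 8 for vessels passed. Without mutant 191 the calls of Uchl1, S100b, Gfap and Mobp were lost, without wild-type 161 those of S100b, Gfap and Mobp, and without mutant 153 or wild-type 200 that of Gfap. Calls were also gained: Slc17a7 and Neurod6 of the cortical list fell without mutant 154 (adjusted p = 0.00710 and 0.00872), Cldn5 of the vessel list fell without mutant 191 (adjusted p = 0.00966), Aif1 of the microglial list fell (adjusted p = 0.0167) and Mag rose (adjusted p = 0.0426) without wild-type 180, and Cldn11 fell without wild-type 170 (adjusted p = 0.0498). With all mice Slc17a7, the vesicular glutamate transporter of cortical neurons, had a log2 change of -1.45 (SE 0.44, adjusted p = 0.0574), with overlapping groups. The cortical list varied widely between mice, from a mean level of 5.42 in mutant 191 to 6.68 in mutant 154 and from 5.82 in wild-type 170 to 6.51 in wild-type 161. Mean levels of the microglial list were 7.62 to 7.77 in mutants and 7.51 to 7.78 in wild-type mice, and those of the astrocyte list were 10.2 to 10.3 and 10.1 to 10.3. Those of the vessel list were 6.34 to 6.45 and 6.50 to 6.64. The part of cell composition in the changes of the 9 genes was not tested.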

How the data were processed

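The authors' deposited table holds log2 values. RMA and the affy package made them, per the submitters' processing notes, with versions not given in the sources used here. Such normalisation forces the arrays to 1 distribution, so a shift shared by most genes cannot be seen, and it compresses changes of dim genes. Of 45101 probe sets, 64 controls were left out, and 34945 of the others had 1 gene symbol in the platform annotation. Each gene was represented by its brightest single-gene probe set over the 8 arrays. The 9 genes and all lists were chosen with earlier results of these data known.

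Tests used limma 3.58.1 in R 4.3.3 (lmFit and eBayes) with genotype and recorded sex as terms and Benjamini-Hochberg adjustment over all genes or, for single probe sets, over all 45037 non-control probe sets. The fit was tested on simulated data with independent noise for each gene, which cannot show how it handles uneven RNA quality or correlated genes. Sex-adjusted log2 changes need not equal the gap between group means. The mice are separate animals by their label numbers, and 4 per group limits precision. The named genes are the 9 members, Htt, the 3 genes of lowest adjusted p among those that passed in each pathway list (2 in marker lists) and the 3 genes nearest in profile to each member that passed and changed at least 1.5-fold. Named outside this rule, after their values were seen, were Pde4d, Per1, Crh, Npas4, Pdyn, Tac1, Dusp1, Sst and Pcsk1, and the marker genes Slc17a7, Neurod6, Cldn5, Aif1, Mag and Cldn11. Gnal, Ppp1r1b and Ptpn5 were also named outside it, as genes that lists share.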

Additional observations from a re-analysis of the deposited data

Results flagged for a closer look

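Among 66 sets of 4 values (33 probe sets in 2 groups), 4 held a mouse whose gap to its nearest neighbour took more than 0.83 of the group's range, where chance marks about 5% of sets. Wild-type mouse 170 was lowest for Prkacb 1420610_at, at 4.17 against 6.35 for the next mouse, and for Prkar1b 1416754_at, at 7.19 against 8.44. Wild-type mouse 161 was lowest for Prkar2b 1438664_at, at 9.70 against 9.94. Mutant 191 was highest for Akap5 1431717_at, at 8.03 against 7.71. The genotype effect on Npas4, a listed CREB target, differed between the sexes in the interaction fit, by 3.11 on the log2 scale (male minus female, limma adjusted p = 0.00986). It rests on wild-type 161 as the sole female control and mutant 191 as the sole male mutant.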

How the results depend on the processing

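Of 652 single values of members and their probe sets under the 22 alternatives, 521 kept their direction and side of the threshold, 73 lost a call, 35 gained one and 23 turned direction. Those that turned were never called. The Crem change (also Crem 1449037_at) was -0.052 without the sex term, -0.18 to 0.37 when a mouse was left out, and, dropping the sex term as well, -0.20 without 191, -0.055 without 161 and -0.032 without 170. Prkaca (and Prkaca 1447720_x_at) ranged from -0.014 to 0.13 when a mouse was left out, and Prkaca was -0.0015 without probe sets ending in _s_at or _x_at. Prkaca 1450519_a_at was 0.11 without the sex term, 0.0071 after median centring, -0.13 to 0.12 when a mouse was left out, and 0.20, 0.14 and 0.10 without 191, 161 and 170, sex term dropped. Prkar2b 1430640_a_at ranged from -0.55 to 0.074 when a mouse was left out. Rises among the 9 genes numbered 4 without sex in the fit, 4 with a trended and robust prior and 4 among the brighter genes alone, and 0 to 3 when a mouse was left out, 0 being without mutant 191. Falls numbered 0 on the mean of probe sets and 1 to 2 when a mouse was left out, 1 being without 191, 161 or 200. Rises among the 33 probe sets numbered 2 without moderation, 3 with values floored at 5 and 0 to 7 when a mouse was left out, and falls 1 to 4. Over the 7 pathway lists 19 to 35 genes fell and 1 to 5 rose when a mouse was left out. Fits without mouse 170 and sex, and the mean of probe sets without mouse 170, were added after seeing the data. Crem had no value among the brighter genes. No paired analysis was possible because the groups share no mouse number. Signal near background limits Crem, 4 Creb1 probe sets and Akap5 1447301_at. It also limits Prkacb 1457197_at, Prkar1a 1447635_at, Prkar2a 1432409_at and Prkar2a 1427414_at.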
